A study of Mus musculus with 64 samples.

Results

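Cdx1, Cdx2 and Cdx4 are the 3 caudal-type homeobox genes of the mouse, and the chromatin around them was examined for occupancy of SOX2, β-catenin and 3 TCF/LEF proteins. Every peak whose summit lay in the gene body or within 20 kb of it was taken from the 60 deposited peak lists of a chromatin immunoprecipitation sequencing (ChIP-seq) series. These windows held 1472 of 12175672 summits, with 563 at Cdx1, 641 at Cdx2 and 268 at Cdx4. Of the 1094874 summits among the 20000 strongest peaks of each library by fold enrichment, 425 lay in the windows. Windows of the same kind were set around all 21911 protein-coding genes for comparison.

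The 5 targets were each precipitated in 3 biological replicates from 4 conditions, all labelled 72 h, in mouse embryonic stem cells of the male HM1 (129) background and cells derived from them. All came from an HM1 TetON line, so that the wild-type cells also carried rtTA, the doxycycline-controlled transactivator, at Rosa26. The TCF/LEF proteins were TCF7L2, which the labels call TCF4, TCF7L1, which they call TCF3, and LEF1. Naive ESCs were wild-type cells held in 2i medium, which combines CHIR99021, a GSK3 inhibitor that activates WNT signalling, with the MEK inhibitor PD0325901. Caudal epiblast-like cells (CEpiLCs) were wild-type cells differentiated with bFGF and LGK974, a blocker of WNT secretion, and then with CHIR99021 added. SOX2-ON and SOX2-OFF cells came from a picked Sox2-/- clone that additionally carried a doxycycline-inducible Sox2 transgene at the Hprt locus, and were put through the CEpiLC protocol. Doxycycline, 1 µg/ml in the stem cell medium, was kept on for SOX2-ON and withdrawn for SOX2-OFF, in which SOX2 made earlier may persist. By design, naive ESCs and SOX2-ON cells are the high-SOX2 conditions, whereas CEpiLCs and SOX2-OFF cells are the low-SOX2 conditions. Naive ESCs and CEpiLCs differ in medium as well as SOX2, and these cannot be told apart.

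CDX proteins are homeodomain transcription factors that give cells of the posterior embryo their axial identity and drive posterior Hox genes, and Cdx2 also has roles in trophectoderm and intestine. In canonical WNT signalling β-catenin enters the nucleus and acts through DNA-bound TCF/LEF proteins. TCF7L1 is known mainly as a repressor in ESCs, whereas LEF1 acts mainly as an activator. SOX2 is an HMG-box factor of pluripotent and neural progenitor cells, and Cdx genes are known WNT targets in the caudal epiblast.

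The lists held from 1628 to 991719 peaks. In 5 libraries the list was under 5000 peaks, and all 5 were from low-SOX2 conditions. They were replicate 1 of CEpiLCs for LEF1, TCF7L1 and TCF7L2, and replicate 2 of SOX2-OFF for β-catenin and TCF7L2. An absent peak in these libraries may be a matter of list length, which was not tested, and the counts of called or separated differences are also given without these lists. The lists give no read counts, so the depth behind each value is unknown. Values at single places are folds, the deposited enrichment of the peak over its control. They are given for replicates 1, 2 and 3 in that order and were read from the complete lists. A strong peak or summit is one among the 20000 strongest of its library. In the 10 lists of under 20000 peaks every peak counts as strong, so the lowest strong fold differed between libraries. For β-catenin it was 3.08, 1.61 and 1.54 in CEpiLCs and 5.90, 6.35 and 5.64 in naive ESCs. For LEF1 it was 2.27, 2.04 and 3.34 in CEpiLCs and 5.64, 5.49 and 9.60 in naive ESCs. For SOX2 it was 4.33, 5.92 and 5.32 in CEpiLCs and 9.89, 6.34 and 6.02 in naive ESCs. For TCF7L1 and TCF7L2 these conditions overlapped. In comparisons of log2 fold a library without a peak was set to a fold of 1.

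Summits among the 20000 strongest peaks were joined into elements where they lay within 200 bp of one another, and an element was kept if it was held by at least 2 of 3 libraries of any target and condition. This gave 15 elements in the Cdx windows of 50427 genome-wide, and 345 of the 425 strong summits lay in them. Cdx1 had 3 elements, Cdx2 had 9 and Cdx4 had 3, and each is named by its gene and its distance from the gene start in kb, positive in the direction of transcription. Coordinates are mm10. Cdx1 (ENSMUSG00000024619.8, chr18:61018862-61036199, minus strand) carried an element 130 bp upstream of its start (Cdx1 −0.1 kb), another in its intron 1 (Cdx1 +1.2 kb) and one more in intron 1 of the neighbouring Slc6a7 (Cdx1 +22.9 kb). Cdx2 (ENSMUSG00000029646.3, chr5:147300805-147307270, minus strand) carried 2 in its intron 1 (Cdx2 +2.3 kb and Cdx2 +2.9 kb), 1 downstream, 3 upstream outside genes and 3 in intron 1 of Urad. Cdx4 (ENSMUSG00000031326.2, chrX:103321398-103330592, plus strand) carried 1 in its intron 1 (Cdx4 +5.3 kb) and 1 on either side of the gene, outside annotated genes.

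**Figure D1:**
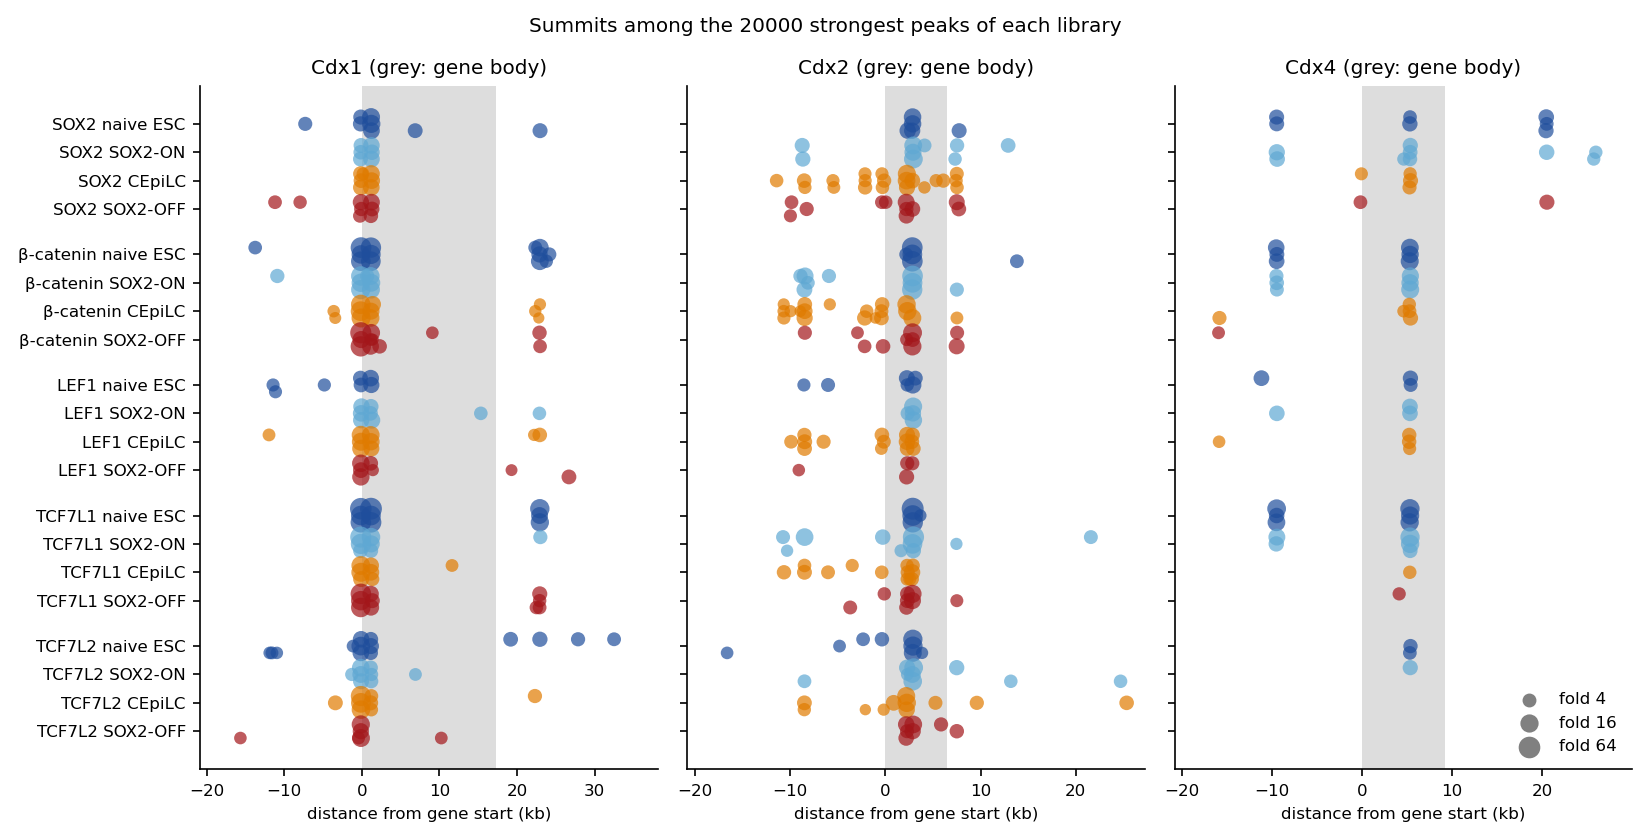
Map of strong summits around the Cdx genes. Each panel is 1 gene, the x axis is the distance from the gene start in kb along transcription, rows are the 5 targets split into the 4 conditions (also given by colour), each point is a summit among the 20000 strongest peaks of 1 library with a size that grows with fold, and the grey band is the gene body. Cdx1 holds summits in all 60 libraries, Cdx2 in 59 and Cdx4 in 38.

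The sequences around the intronic and upstream elements at Cdx2 and Cdx4 that carry the differences below are shown here on the strand of the gene, 100 bp to either side of the strongest summit (GRCm38, the assembly of mm10). Capitals mark matches to SOX letters (CATTGT or CTTTGT) and TCF letters (CTTTGAA or CTTTGAT), searched on both strands. They span chr5:147304307-147304507 (minus) for Cdx2 +2.9 kb, chr5:147304949-147305149 (minus) for Cdx2 +2.3 kb, chr5:147307453-147307653 (minus) for Cdx2 −0.3 kb, chrX:103311829-103312029 (plus) for Cdx4 −9.5 kb and chrX:103326632-103326832 (plus) for Cdx4 +5.3 kb.
Cdx2 +2.9 kb: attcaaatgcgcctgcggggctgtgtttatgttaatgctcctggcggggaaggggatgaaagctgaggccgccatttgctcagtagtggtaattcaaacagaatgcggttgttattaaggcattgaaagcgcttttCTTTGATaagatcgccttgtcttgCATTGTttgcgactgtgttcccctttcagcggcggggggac
Cdx2 +2.3 kb: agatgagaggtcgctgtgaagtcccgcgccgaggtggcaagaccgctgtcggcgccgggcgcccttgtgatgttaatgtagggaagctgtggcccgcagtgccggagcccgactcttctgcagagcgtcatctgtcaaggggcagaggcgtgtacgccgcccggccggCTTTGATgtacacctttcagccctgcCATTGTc
Cdx2 −0.3 kb: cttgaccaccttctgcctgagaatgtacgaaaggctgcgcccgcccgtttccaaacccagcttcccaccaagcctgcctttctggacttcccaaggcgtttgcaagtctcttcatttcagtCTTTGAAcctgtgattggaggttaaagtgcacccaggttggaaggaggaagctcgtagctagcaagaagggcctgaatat
Cdx4 −9.5 kb: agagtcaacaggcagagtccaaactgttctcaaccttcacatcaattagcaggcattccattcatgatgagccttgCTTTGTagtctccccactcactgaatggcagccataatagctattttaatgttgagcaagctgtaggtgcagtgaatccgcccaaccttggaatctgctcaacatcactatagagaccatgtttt
Cdx4 +5.3 kb: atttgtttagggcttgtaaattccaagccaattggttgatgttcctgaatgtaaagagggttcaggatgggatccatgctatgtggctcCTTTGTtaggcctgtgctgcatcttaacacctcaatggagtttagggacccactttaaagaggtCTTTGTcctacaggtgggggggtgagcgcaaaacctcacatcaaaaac

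Both Cdx2 intronic windows held the letters CTTTGAT followed, on the strand of the gene, by CATTGT, with 17 bases between them at Cdx2 +2.9 kb and 19 at Cdx2 +2.3 kb. In Cdx2 +2.9 kb the TCF match lay 2899 to 2905 bp and the SOX match 2923 to 2928 bp from the gene start. In Cdx2 +2.3 kb they lay at 2289 to 2295 bp and 2315 to 2320 bp. The Cdx1 +1.2 kb window also held 1 TCF match and 3 SOX matches, the nearest of them 17 bases apart. Cdx4 +5.3 kb held 2 SOX matches and Cdx4 −9.5 kb held 1, both without a TCF match, whereas Cdx1 −0.1 kb and Cdx2 −8.5 kb each held 2 TCF matches without a SOX match. Across the 15 elements, 7 held SOX letters and 8 held TCF letters within 100 bp of the strongest summit. Windows of the same length around 29761 sites, each in at least 2 of 3 strong SOX2 lists of a condition, held them at 56.7% and 15.3%. Those sites were centred on SOX2 summits, whereas most of the 15 elements had their strongest summit in a library of another target. The shares therefore compare unlike sites, and a difference between them cannot be read as a property of the Cdx loci. CDX letters (TTTATGG or TTTATTG) were in 1 of the 15 elements against 6.50% of those sites, and the T-box letters GGTGTG in 1 against 13.5%. The letters CTTTGT and the TCF letters share CTTTG and differ in the next base, so no position can match both, and a match describes letters and not a bound site. Of the study's reporter fragment from this intron only 399 bases were examined. They matched chr5:147304121-147304519, which spans the Cdx2 +2.9 kb element. The paper describes a longer fragment that holds the SOX2 peaks of the intron, with more predicted SOX2 motifs scrambled. Whether that fragment also covers Cdx2 +2.3 kb was not examined. The SOX-motif variant of the fragment differed from it at 6 of the 399 bases. They lay within 2 stretches, 3032 to 3034 bp and 2925 to 2928 bp from the gene start, in which 1 base was the same in both, and the second stretch was within the CATTGT printed above.

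In intron 1 of Cdx2, strong summits sat at Cdx2 +2.9 kb in high-SOX2 conditions and were found more often at Cdx2 +2.3 kb in low-SOX2 conditions. The median summits of the elements lay 592 bp apart. For SOX2, Cdx2 +2.9 kb held a strong summit in 6 of 6 high-SOX2 and 2 of 6 low-SOX2 libraries, and Cdx2 +2.3 kb in 1 of 6 and 6 of 6. In naive ESCs the SOX2 fold at Cdx2 +2.9 kb was 17.0, 26.6 and 27.3, and in SOX2-ON it was 45.9, 22.7 and 31.1. CEpiLCs had a summit there in replicate 2 only, at a fold of 13.9, and SOX2-OFF likewise in replicate 2, at 13.5. At Cdx2 +2.3 kb the SOX2 fold was 16.2, 29.2 and 34.4 in CEpiLCs and 13.2, 8.39 and 21.7 in SOX2-OFF. The high-SOX2 libraries lacked a strong SOX2 summit at that place except for naive ESC replicate 1, at 17.6.

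TCF7L2, a TCF/LEF protein with activating and repressing forms, showed the same change of position between the wild-type conditions. Its fold at Cdx2 +2.9 kb was 32.5, 55.8 and 57.6 in naive ESCs, and no CEpiLC library had a strong summit there. At Cdx2 +2.3 kb its fold was 17.9, 38.8 and 33.7 in CEpiLCs, and no naive ESC library had one. In the transgenic clone each condition held both elements. In SOX2-ON its fold at Cdx2 +2.9 kb was 43.1, 21.1 and 45.3, and replicates 2 and 3 also had a strong summit at Cdx2 +2.3 kb, at 4.94 and 16.4. SOX2-OFF libraries carried both, with Cdx2 +2.3 kb at 12.9, 7.70 and 18.03 in all 3 and Cdx2 +2.9 kb at 16.6 and 29.6 in replicates 2 and 3. For β-catenin, the coactivator with no DNA-binding domain of its own, Cdx2 +2.9 kb was at 104, 70.8 and 109 in naive ESCs and at 91.2, 70.2 and 107 in SOX2-ON. In CEpiLCs it was at 32.7 in replicate 1, while replicates 2 and 3 had their summit at Cdx2 +2.3 kb instead, at 38.6 and 39.3. SOX2-OFF kept β-catenin at Cdx2 +2.9 kb, at 36.4, 9.83 and 48.5. The strongest β-catenin summit of the intron thus lay at Cdx2 +2.9 kb in 3 of 3 SOX2-OFF and 1 of 3 CEpiLC libraries, although both are low-SOX2 conditions.

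TCF7L1 had the highest fold of any Cdx peak at Cdx2 +2.9 kb, with 92.7, 108 and 202 in naive ESCs. In CEpiLCs it was at 8.42, 17.5 and 7.36 there, all below the naive ESC values. SOX2-ON spread from 11.8 in replicate 1 to 66.6 and 138 in the others, and SOX2-OFF had 22.5 and 34.9 in replicates 2 and 3 and no summit in replicate 1. Strong TCF7L1 summits at Cdx2 +2.3 kb were weaker and were present in 6 of 6 low-SOX2 and 0 of 6 high-SOX2 libraries, with 5.71, 8.13 and 6.30 in CEpiLCs and 9.30, 9.67 and 10.3 in SOX2-OFF. LEF1 was at 9.78, 9.76 and 9.28 in CEpiLCs and at 26.8, 17.4 and 34.6 in SOX2-ON at Cdx2 +2.9 kb, and at 9.76, 18.2 and 15.97 in CEpiLCs at Cdx2 +2.3 kb. Naive ESC replicates 2 and 3 also held LEF1 at both places, at 24.0 and 10.1 at Cdx2 +2.9 kb and at 6.33 and 15.3 at Cdx2 +2.3 kb, and replicate 1 had it at neither.

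**Figure D2:**
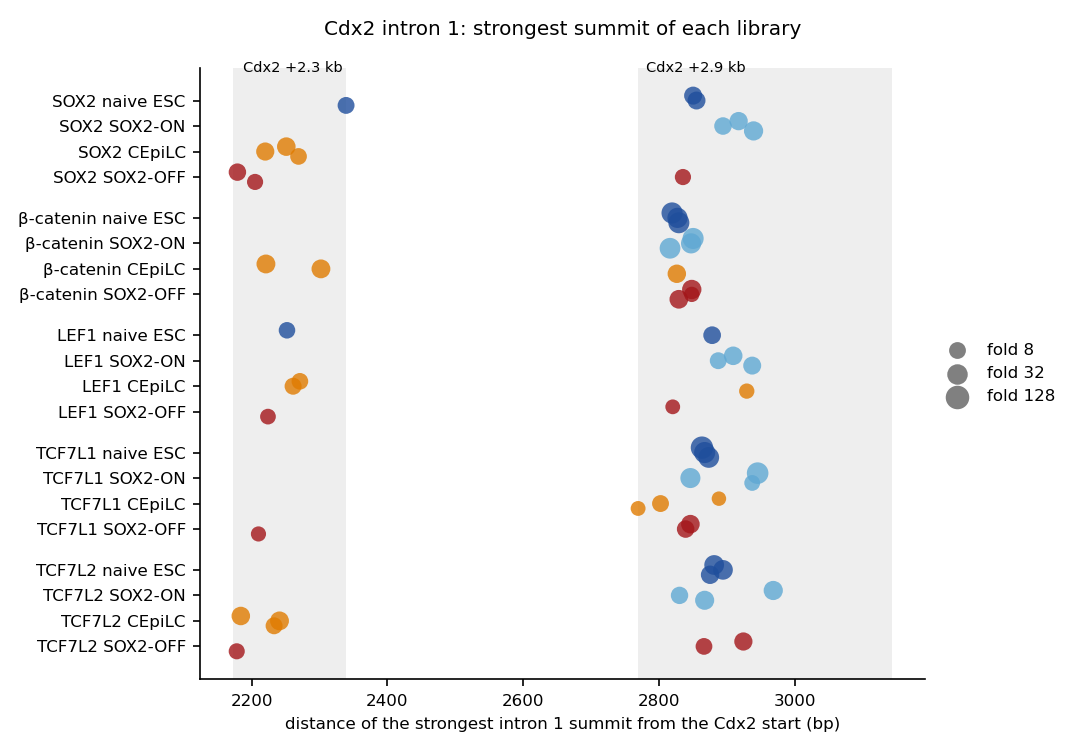
Position of the strongest peak summit in intron 1 of Cdx2. The x axis is the distance from the gene start in bp, rows are the 5 targets split by condition (also given by colour), each point is 1 library, point size grows with fold and the shaded bands are the Cdx2 +2.3 kb and Cdx2 +2.9 kb elements. The strongest summit lies in Cdx2 +2.3 kb in 10 CEpiLC, 5 SOX2-OFF, 2 naive ESC and 0 SOX2-ON libraries, each of 15.

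Taking the strongest intronic summit of each library over the 5 targets, 27 of 30 high-SOX2 libraries had it at Cdx2 +2.9 kb and 2 at Cdx2 +2.3 kb, and 1 had none. Among low-SOX2 libraries the numbers were 14, 15 and 1. The median SOX2 summit lay 2850 bp from the gene start in naive ESCs, 2917 bp in SOX2-ON, 2251 bp in CEpiLCs and 2205 bp in SOX2-OFF. The peaks were wide relative to this distance, with a median of 1119 bp, and a single peak covered both elements in 34 of 60 libraries. These were 19 of 30 high-SOX2 and 15 of 30 low-SOX2 libraries. Counting any strong peak that overlapped Cdx2 +2.9 kb, rather than a summit in it, 15 of 15 CEpiLC and 14 of 15 SOX2-OFF libraries had one. A strong peak likewise overlapped Cdx2 +2.3 kb in 13 of 15 naive ESC and 13 of 15 SOX2-ON libraries. The summit counts for this intron therefore give the position of the maximum, and a missing summit is not a missing peak. In CEpiLCs a single peak spanned both elements in 8 of 15 libraries, in 3 of 3 for β-catenin and for TCF7L2, 2 of 3 for SOX2 and 0 of 3 for LEF1 and for TCF7L1. These libraries share targets and replicates and were not pooled into a test.

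Of the other 7 Cdx2 elements, Cdx2 −8.5 kb had strong summits in the most libraries, 23 of 60, followed by Cdx2 −0.3 kb and Cdx2 +7.5 kb with 16 each. Cdx2 −0.3 kb and Cdx2 −8.5 kb had them in more libraries from CEpiLCs than from any other condition. Cdx2 −0.3 kb, 283 bp upstream of the gene start at its strongest summit, held a strong summit in 11 of 15 CEpiLC libraries, against 3 of 15 SOX2-OFF libraries and 1 of 15 in either high-SOX2 condition. In the complete lists the numbers were 13 for CEpiLCs, 6 for SOX2-OFF, 6 for SOX2-ON and 2 for naive ESCs. Its CEpiLC folds were 9.60, 7.50 and 9.07 for β-catenin, 6.53, 8.41 and 5.97 for SOX2 and 5.26, 7.48 and 9.46 for LEF1. None of the naive ESC libraries of these 3 targets had a strong summit there. Cdx2 −8.5 kb, in intron 1 of Urad, a gene of urate breakdown, was held by 12 CEpiLC, 7 SOX2-ON, 3 SOX2-OFF and 1 naive ESC library, again of 15 each, and in the complete lists by 14, 9, 9 and 5. For β-catenin its fold was 16.6, 13.9 and 9.81 in CEpiLCs and 14.4, 7.09 and 22.3 in SOX2-ON, with no peak in any naive ESC library. SOX2 in CEpiLCs was at 8.52, 5.96 and 5.83 at Cdx2 −2.1 kb, and β-catenin at 5.98, 4.97 and 4.42 at Cdx2 −10.7 kb. Both were without a strong summit in the 6 naive ESC and SOX2-OFF libraries of that target. The remaining 3 elements, Cdx2 +7.5 kb, Cdx2 −5.5 kb and Cdx2 −9.9 kb, were held by 16, 2 and 4 of 60 libraries, and at Cdx2 +7.5 kb SOX2-OFF had the most, with 6 of 15.

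At Cdx4, occupancy at Cdx4 −9.5 kb was seen in high-SOX2 conditions and occupancy at Cdx4 +5.3 kb in every condition but SOX2-OFF. Cdx4 −9.5 kb held a strong summit in 8 of 15 naive ESC and 8 of 15 SOX2-ON libraries and in 0 of 15 CEpiLC and 0 of 15 SOX2-OFF libraries, and the complete lists held no overlapping peak in either low-SOX2 condition, whether their lists were short or long. β-catenin was at 13.7, 10.4 and 19.03 there in naive ESCs and at 7.45, 9.45 and 8.10 in SOX2-ON. TCF7L1 was at 29.7, 12.9 and 45.4 in naive ESCs and at 12.3 and 21.5 in SOX2-ON replicates 2 and 3. SOX2 was at 10.6 and 10.99 in naive ESC replicates 2 and 3 and at 13.4, 16.8 and 5.92 in SOX2-ON.

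Cdx4 +5.3 kb held a strong summit in 10 of 15 CEpiLC libraries, in 12 of 15 libraries of either high-SOX2 condition and in 0 of 15 SOX2-OFF libraries. The complete lists added 3 SOX2-OFF summits, 1 each for β-catenin at 3.70, LEF1 at 3.29 and TCF7L1 at 4.14. SOX2 folds there were 7.90, 12.2 and 6.88 in naive ESCs, 7.999, 10.9 and 6.21 in CEpiLCs and 8.89, 9.82 and 11.6 in SOX2-ON, ranges that overlap. β-catenin folds were 33.6, 25.8 and 30.1 in naive ESCs, 33.4, 25.6 and 24.1 in SOX2-ON and 11.8, 7.03 and 6.31 in CEpiLCs, so that every CEpiLC library was below every high-SOX2 library. TCF7L1 folds were 38.0, 35.7 and 58.2 in naive ESCs and 10.0, 38.6 and 58.0 in SOX2-ON, with 6.41 in replicate 2 as the only CEpiLC summit. LEF1 was at 5.90, 8.90 and 8.63 in CEpiLCs and had no strong peak anywhere in the Cdx4 window in SOX2-OFF. Of the 15 gene and target pairs this was the only one whose window had strong peaks throughout one condition and in 0 of 3 libraries of the one compared with it, and 1.1% of all gene windows showed this for LEF1 between CEpiLCs and SOX2-OFF. Of 24 other caudal epiblast genes, 3 did, namely Hoxa5 (CEpiLC folds 21.03, 13.98 and 12.7), Hoxa7 (8.43, 9.10 and 7.49) and Hoxa9 (7.42, 6.12 and 4.68), which are clustered homeobox genes and share a neighbourhood. The absence was one of strong peaks. In the complete lists SOX2-OFF replicates 1 and 3 had LEF1 peaks at Hoxa5 (4.83 and 4.89), Hoxa7 (4.57 and 4.89), Hoxa9 (4.46 and 5.67) and Cdx4 itself (6.98 and 6.66). At Cdx4 +20.5 kb all strong summits were of SOX2. They were in the naive ESC libraries, at 11.7, 7.30 and 13.3, in SOX2-ON replicate 2, at 12.6, and in SOX2-OFF replicate 3, at 11.3.

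Over the 15 elements and 5 targets, 46 pairs had a strong summit in at least 2 libraries of some condition, and 28 times such a pair was in 3 of 3 libraries of one condition and 0 of 3 of the condition compared with it. Summits in 3 of 3 CEpiLC and 0 of 3 naive ESC libraries were seen for 8 pairs (17.4%, against 7.99% of 96304 pairs genome-wide), and the reverse for 5 (10.9%, against 15.4%). All 8 were Cdx2 pairs. For those of SOX2, β-catenin and LEF1 the lowest strong fold was lower in CEpiLCs than in naive ESCs, as given above. Summits in CEpiLCs and not SOX2-OFF were seen for 7 (15.2%, against 5.06%) and in SOX2-OFF and not CEpiLCs for 1 (2.17%, against 1.04%), the latter TCF7L1 at Cdx1 +22.9 kb. SOX2-ON and not SOX2-OFF gave 5 (10.9%, against 6.95%), 4 of them at Cdx4 and 1 at Cdx1, and the reverse gave 2 (4.35%, against 1.35%), SOX2 and TCF7L1 at Cdx2 +2.3 kb. When absence also required that no strong peak overlap the element, 23 of the 28 remained, and the 5 lost were all in Cdx2 intron 1. Without the lists of under 5000 peaks there were 31 in place of 28.

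**Figure D3:**
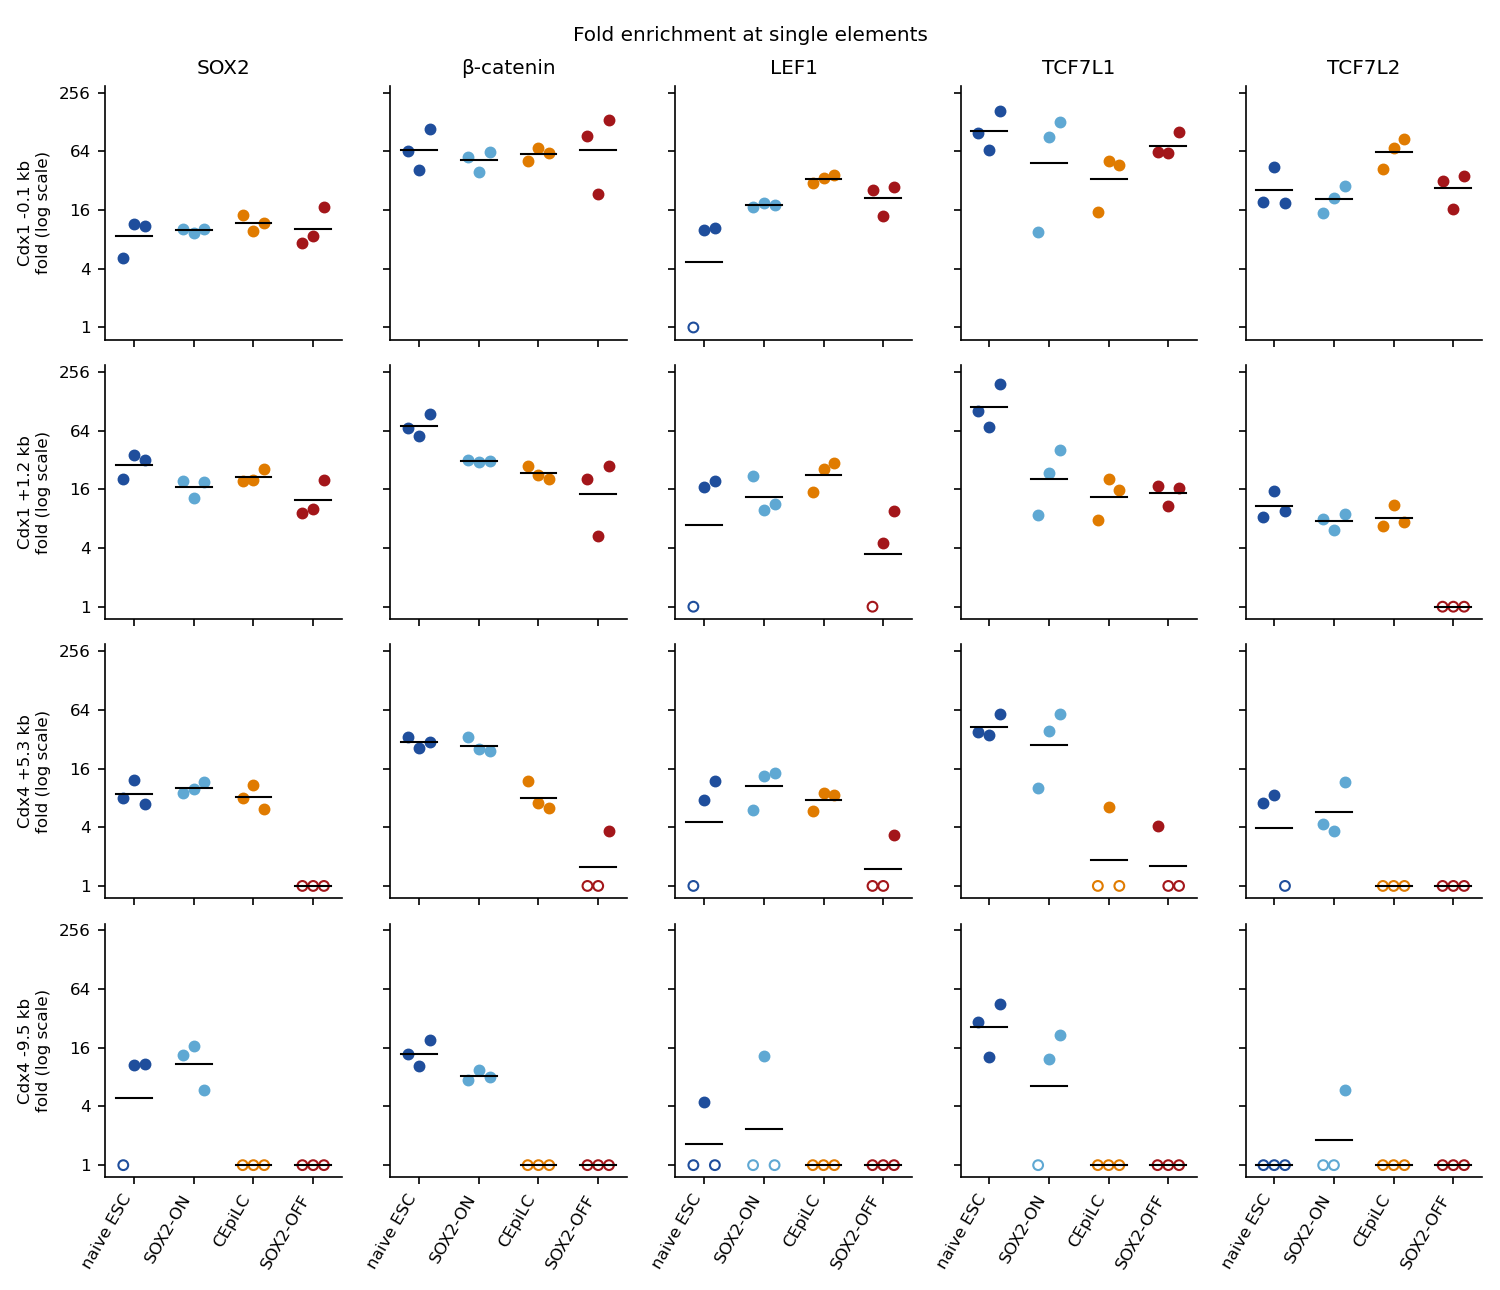
Fold at Cdx1 −0.1 kb, Cdx1 +1.2 kb, Cdx4 +5.3 kb and Cdx4 −9.5 kb. Rows are elements, columns are targets, the x axis gives the condition, the y axis is fold on a log scale, each point is 1 library (open where it has no summit, drawn at 1) and the line is the mean of log2 fold. At Cdx4 −9.5 kb no CEpiLC or SOX2-OFF library has a summit, and at Cdx4 +5.3 kb the 3 SOX2-OFF summits lie at 3.29 to 4.14.

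Cdx1 was occupied in all 60 libraries, with strong summits in 58 at the promoter element (Cdx1 −0.1 kb) and in 55 at the intronic element (Cdx1 +1.2 kb). The elements differed in which was stronger. For SOX2 the intronic element was the higher in 12 of 12 libraries. Its SOX2 folds were 20.3, 36.05 and 32.2 in naive ESCs, 19.4, 19.9 and 25.6 in CEpiLCs, 19.6, 12.9 and 18.9 in SOX2-ON and 9.18, 10.1 and 20.1 in SOX2-OFF, and the promoter folds in the same order were 5.22, 11.7 and 11.1, then 14.4, 9.73 and 11.8, then 10.3, 9.23 and 10.4, then 7.32, 8.65 and 17.2. The log2 ratio of promoter to intron for SOX2 ran from −1.71 ± 0.22 (SD, n = 3) in naive ESCs to −0.26 ± 0.06 (SD, n = 3) for SOX2-OFF cells.

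For β-catenin the balance between the elements differed by condition. Its intronic folds were 68.7, 56.2 and 94.4 in naive ESCs, 27.9, 22.5 and 20.3 in CEpiLCs, 32.3, 30.4 and 31.0 in SOX2-ON and 20.4, 5.36 and 27.5 in SOX2-OFF. The promoter folds were 64.6, 41.0 and 109.7 in naive ESCs, 51.1, 69.5 and 61.5 in CEpiLCs, 56.1, 39.6 and 63.0 in SOX2-ON and 92.0, 23.3 and 135 in SOX2-OFF. Naive ESCs thus had the highest intronic folds, whereas at the promoter the conditions overlapped. The log2 ratio of promoter to intron was −0.11 ± 0.34 (SD, n = 3) in naive ESCs, 0.73 ± 0.32 in SOX2-ON, 1.37 ± 0.43 in CEpiLCs and 2.19 ± 0.09 in SOX2-OFF. TCF7L1 gave −0.12 ± 0.08 in naive ESCs, 1.25 ± 0.98 in SOX2-ON, 1.30 ± 0.29 in CEpiLCs and 2.34 ± 0.41 in SOX2-OFF, again over 3 libraries each. A ratio within a library cancels only a factor common to both folds. TCF7L1 in SOX2-ON replicate 1 had low folds at both elements, 9.64 at the promoter and 8.80 in the intron. Its log2 ratio was 0.13, against 1.96 and 1.66 in replicates 2 and 3. Whether the strength of enrichment affected the ratios was not tested. Over all targets the promoter was the higher in 8 of 11 SOX2-OFF, 12 of 15 CEpiLC, 11 of 15 SOX2-ON and 4 of 14 naive ESC libraries with a summit in both.

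TCF7L2 had a summit at Cdx1 +1.2 kb in every library of the other conditions and in no SOX2-OFF library. It had folds of 8.38, 15.5 and 9.66 in naive ESCs, 6.70, 11.2 and 7.31 in CEpiLCs and 7.96, 6.11 and 8.91 in SOX2-ON, and no summit in SOX2-OFF, while the promoter stayed occupied there at 32.01, 16.5 and 36.04. The SOX2-OFF replicate 2 list for TCF7L2 is among those under 5000 peaks. LEF1 at the promoter was at 30.1, 34.2 and 36.5 in CEpiLCs, 17.1, 18.7 and 18.2 in SOX2-ON and 25.6, 13.9 and 27.7 in SOX2-OFF, with 9.90 and 10.5 in naive ESC replicates 2 and 3. Every CEpiLC library was above every other. Cdx1 +22.9 kb held a strong summit in 8 naive ESC, 5 SOX2-OFF, 3 CEpiLC and 2 SOX2-ON libraries, each of 15. Its folds were highest in naive ESCs, with β-catenin at 30.2, 16.7 and 27.6 and TCF7L1 at 37.2, 21.2 and 59.7. In SOX2-OFF TCF7L1 was at 7.1999, 6.42 and 11.2 and β-catenin at 6.92 and 8.85 in replicates 1 and 3, and in CEpiLCs β-catenin was at 3.50 and 4.53 in replicates 1 and 3.

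The highest fold in the whole window was then compared between high-SOX2 and low-SOX2 libraries, with an exact two-sided permutation test over all 400 assignments within the wild-type and the transgenic lines, 6 libraries against 6, whose smallest p is 0.005. Cdx4 was higher in high-SOX2 conditions for β-catenin by 2.56 on the log2 scale (SE 0.42, exact p = 0.005), for TCF7L1 by 3.81 (SE 0.74, exact p = 0.005), for SOX2 by 0.90 (SE 0.27, exact p = 0.005) and for TCF7L2 by 1.52 (SE 0.64, exact p = 0.04). Cdx2 was higher for β-catenin by 1.55 (SE 0.38, exact p = 0.005), for TCF7L1 by 2.46 (SE 0.65, exact p = 0.02) and for TCF7L2 by 0.81 (SE 0.33, exact p = 0.035). After dividing each fold by that of the 1000th strongest peak of its library, the difference was 1.29 for TCF7L1 at Cdx2 (exact p = 0.005) and 0.47 for SOX2 at Cdx4 (exact p = 0.13), and with peaks ranked by −log10 p the SOX2 difference at Cdx4 was 0.50 (exact p = 0.12). TCF7L2 at Cdx4 also missed 0.05 when peaks were ranked by −log10 p (0.57, exact p = 0.16), with the 20000 strongest peaks or equal-length lists (1.57, exact p = 0.2) and with 50 kb around the gene (1.00, exact p = 0.18). At Cdx1 the LEF1 difference was −0.78 (SE 0.32, exact p = 0.045), lower in high-SOX2 conditions. The other 7 of the 15 differences did not reach 0.05 and ran from −0.83 for TCF7L2 at Cdx1 (exact p = 0.055) to 0.75. Cdx1 β-catenin differed by −0.01 (exact p = 0.975).

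None of these passed after Benjamini-Hochberg adjustment over all 21911 windows, and neither did any other window. The adjusted values, from the same exact permutation test, were 0.087 for β-catenin at Cdx2 and Cdx4, 0.079 for SOX2 at Cdx4, 0.12 for LEF1 at Cdx1, 0.50 for TCF7L1 at Cdx2 and Cdx4 and 1 for TCF7L2. Exact permutation p-values of at most 0.05 before adjustment were found in 8810 windows for LEF1, 7754 for β-catenin, 4577 for SOX2, 1811 for TCF7L1 and 429 for TCF7L2. Higher values in high SOX2 were called in 33.9% of windows for β-catenin (2 of 3 Cdx genes), 18.2% for SOX2 (1 of 3), 7.91% for TCF7L1 (2 of 3) and 0.844% for TCF7L2 (2 of 3), and lower values for LEF1 in 0.977% (1 of 3). The median window was itself higher in high SOX2, by 1.15 for LEF1, 1.09 for β-catenin, 0.37 for SOX2 and TCF7L2 and 0.13 for TCF7L1 on the log2 scale. Against that shift the Cdx2 difference for β-catenin was 1.55 and the Cdx4 difference 2.56, whereas Cdx1 at −0.01 lay below it. Without the lists of under 5000 peaks 6 differences in place of 8 were called. TCF7L2 at Cdx2 (exact p = 0.13) and Cdx4 (exact p = 0.12) and LEF1 at Cdx1 (exact p = 0.10) were lost, and TCF7L2 at Cdx1 was gained, with the lower values in high SOX2 (exact p = 0.02).

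**Figure D4:**
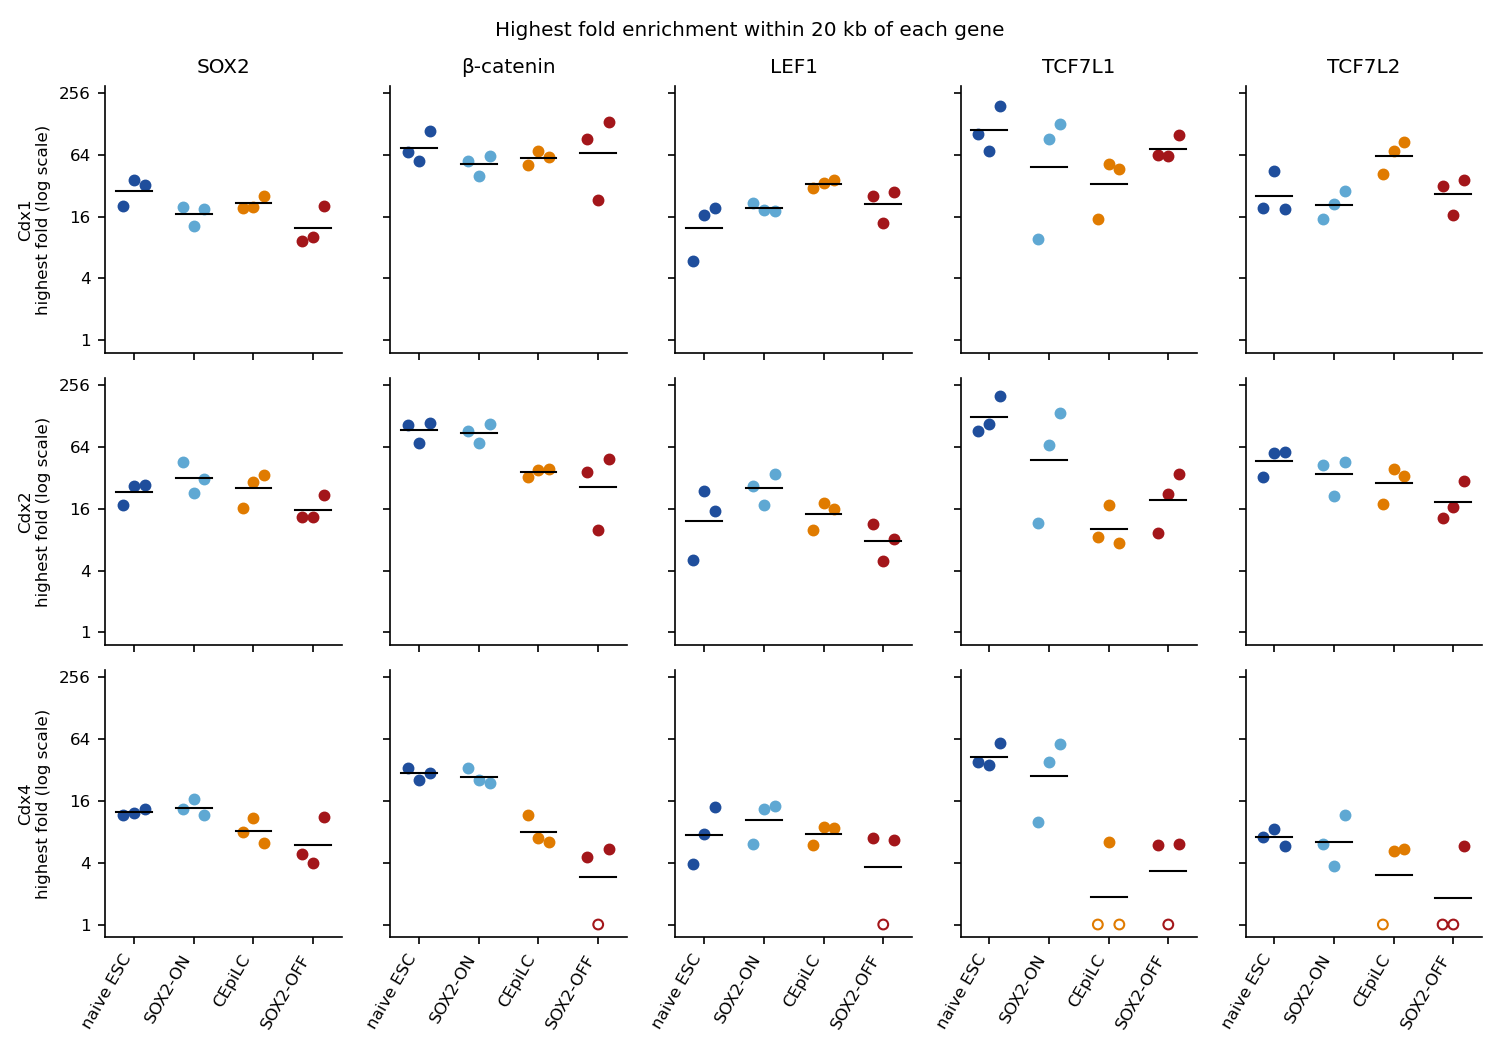
Highest fold in the window of each Cdx gene. Columns are the 5 targets, rows the 3 genes, the y axis is fold on a log scale, each point is 1 library and the bar is the mean of log2 fold over the 3 libraries of a condition. β-catenin at Cdx4 lies at 24.1 to 33.6 in the 6 high-SOX2 libraries and at no more than 11.8 in the 6 low-SOX2 libraries.

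Within the wild-type line, 3 libraries against 3 allow no exact p under 0.1, so complete separation of the groups is given instead. Every naive ESC library was above every CEpiLC library in 7 of the 15 gene and target pairs, against 28.6% of all window and target pairs, and below in 1 (LEF1 at Cdx1, 1.43 higher in CEpiLCs), against 2.93%. The largest of the 7 were TCF7L1 at Cdx4, which fell by 4.53, and at Cdx2, which fell by 3.62 on the log2 scale. At Cdx4, CEpiLC replicates 1 and 3 had no TCF7L1 peak and were set to a fold of 1, and setting them to the lowest fold of their lists gave −3.75. After division by the fold of the 1000th peak the differences were −2.26 at Cdx4 and −1.35 at Cdx2. TCF7L1 at Cdx1 fell by 1.75, but was higher in CEpiLCs by 0.52 after that division. Without the lists of under 5000 peaks, 9 pairs were separated in place of 8 in either direction, with fewer libraries to separate. All 8 were among them. In the transgenic clone, every SOX2-ON library was above every SOX2-OFF library in 6 pairs, against 6.82% of all pairs, and none was the other way round. They were SOX2 at Cdx2 (1.02) and Cdx4 (1.19), β-catenin at Cdx2 (1.77) and Cdx4 (3.23), LEF1 at Cdx2 (1.72) and TCF7L1 at Cdx4 (3.08). Over the fold of the 1000th peak the SOX2 differences were 0.59 at Cdx2 and 0.76 at Cdx4, with overlapping groups at both. Cdx1 was in none of the 6. Without the lists of under 5000 peaks 8 pairs were separated, the 6 and, with SOX2-OFF the higher, β-catenin and TCF7L2 at Cdx1. The share of all pairs for that direction is not reported here, nor is one for any count without these lists. Fewer libraries also separate more easily, so these counts cannot be set against a background.

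SOX2-OFF and CEpiLCs, both low in SOX2 but of different cell lines, were separated in 4 pairs, and in these and 4 more, 8 in all, without the lists of under 5000 peaks. SOX2-OFF was the lower in 3 of them, against 3.16% of all pairs, with log2 differences of −1.46 for β-catenin at Cdx4, −0.64 for LEF1 at Cdx1 and −1.24 for TCF7L2 at Cdx1. It was the higher in 1, TCF7L1 at Cdx1 by 1.15, against 7.91% of all pairs. For β-catenin at Cdx4, SOX2-OFF replicate 2, whose list is among the short ones, had no peak, and without it the difference was −0.69, with the groups still apart. With equal-length lists that difference was −1.19, and with peaks ranked by −log10 p it was −0.65. The groups overlapped in both settings. Over the fold of the 1000th peak LEF1 at Cdx1 differed by −0.20, TCF7L2 at Cdx1 by −0.71 and TCF7L1 at Cdx1 by 0.28, the last with overlapping groups. Without the short lists TCF7L1 at Cdx1 differed by 0.59. The change with SOX2 level differed between the lines for LEF1 at Cdx1 by −1.29 (SE 0.64, exact permutation p = 0.015) and at Cdx2 by −1.94 (SE 0.85, exact permutation p = 0.03), 2 of 3 genes against 6.19% of windows. Neither passed over all windows (adjusted p = 0.60, exact permutation test). Without the lists of under 5000 peaks 3 pairs in place of 2 were called. LEF1 at Cdx2 was at 26.8, 17.4 and 34.6 in SOX2-ON and at 11.3, 4.93 and 8.20 in SOX2-OFF, with no overlap, whereas naive ESCs at 5.02, 24.0 and 15.3 and CEpiLCs at 10.04, 18.2 and 15.97 overlapped.

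Of 24 related genes of the caudal epiblast, high-SOX2 libraries were higher at unadjusted exact permutation p of at most 0.05 in 2 for β-catenin (Fgf17 and Lef1), 1 for SOX2 (Lef1) and 0 for the TCF/LEF proteins, where the share of all windows was 33.9%, 18.2%, 39.2% for LEF1, 7.91% for TCF7L1 and 0.844% for TCF7L2. Low-SOX2 libraries were higher in 3 for TCF7L2 (T, Evx1 and Sp5), 3 for SOX2 (Nkx1-2, Sp5 and Sp8), 1 for TCF7L1 (Wnt3a), 1 for LEF1 (Nkx1-2) and 0 for β-catenin. The share of all windows in that direction was 1.11% for TCF7L2, 2.67% for SOX2, 0.356% for TCF7L1, 0.977% for LEF1 and 1.51% for β-catenin. The median difference of the list was 0.06 for TCF7L2, −0.21 for β-catenin, −0.22 for TCF7L1, −0.23 for LEF1 and −0.28 for SOX2 on the log2 scale. For the last 4 the list lay below 0 while the median window lay above it. Cdx2 and Cdx4 lay above the median window for β-catenin, TCF7L1, TCF7L2 and SOX2, and Cdx1 did for SOX2 (0.44) and TCF7L1 (0.57). For LEF1, Cdx2 and Cdx4 differed by 0.75 each (exact permutation p = 0.19 and 0.28), below the median window of 1.15.

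Over the 60 libraries, log2 fold at Cdx2 and Cdx4 had a Pearson r of 0.73, at Cdx1 and Cdx2 of 0.65 and at Cdx1 and Cdx4 of 0.36. These points share targets, conditions and list lengths, so the values are descriptive. The genes at least 1 Mb away or on another chromosome with the pattern most like Cdx4 were Gm47995 (r = 0.88), Tm9sf4 (0.87) and Myc (0.87), and for Cdx1 they were Aspscr1 (0.90), Dcxr (0.89) and Cenpx (0.89), which are neighbours on chromosome 11.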

How the data were processed

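ChIP-seq peak lists of 60 libraries (5 targets, 4 conditions, 3 biological replicates from separate experiments) were used, and 4 inputs were not analysed here. The authors cross-linked with DSG and PFA, sequenced single ends, aligned reads to mm10 with BWA in nf-core/chipseq and called narrow peaks with MACS (MACS2 in the submitters' processing notes) in each library, not on pooled replicates, at q < 0.05. The input that served each library is not named in those sources. The deposited columns hold, per peak, a linear ratio (fold enrichment), the summit, and the p-value and the q-value as −log10 (lowest for q 1.301). The deposited lists hold 12175735 peaks, of which 12175672 lie on main chromosomes. Peak ends lay within the GRCm38 chromosome lengths.

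A summit was assigned to a protein-coding gene (GENCODE, GRCm38) if it lay in its body or within 20 kb. The locus value was log2 of the highest fold in the window, 0 where no peak was called. High-SOX2 against low-SOX2 libraries were compared by an exact two-sided permutation test within cell lines (400 assignments) on all 21911 windows, with Benjamini-Hochberg adjustment over these. The test was checked on simulated data. Exact permutation tests of 3 against 3 (20 assignments) cannot go below 0.1. The p-values cover the spread between these libraries only. Elements, presence calls and motif searches were as stated above. Genes of like pattern were the 3 with the highest Pearson r of log2 fold. Those for Cdx2 are not reported here. Members and lists were chosen with earlier results of these data known. Alternatives covered the measure, scaling, list length, q filter, window, value without a peak, replicate block and each replicate left out. Analyses used Python 3.11.15, numpy 2.4.6, pandas 2.3.3 and scipy 1.17.1. No sequence is printed for Cdx1.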

Additional observations from a re-analysis of the deposited data

Results flagged for a closer look

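LEF1 at Cdx1 and at Cdx2 changed differently with SOX2 level in the wild-type and transgenic lines, by a test of the difference itself. The log2 change from low to high SOX2 in the wild-type line minus that in the transgenic line was −1.29 at Cdx1 (exact permutation p = 0.015, adjusted p = 0.60 over all windows) and −1.94 at Cdx2 (exact permutation p = 0.03, adjusted p = 0.60). In the wild-type line CEpiLCs were above naive ESCs by 1.43 at Cdx1 and by 0.22 at Cdx2, whereas SOX2-ON minus SOX2-OFF was 1.72 at Cdx2 and −0.14 at Cdx1. Naive ESC replicate 1 of LEF1 had the lowest fold of its group at both genes, at 5.84 and 5.02. Without replicate 1 of every group the differences were −0.87 at Cdx1 and −1.79 at Cdx2, in a design whose smallest exact p is 0.0556. With peaks ranked by −log10 p in place of fold, neither passed (exact permutation p = 0.51 and 0.08).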

How the results depend on the processing

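The 28 locus differences past their threshold or fully separated kept their direction in 362 of 364 recomputed values. TCF7L1 at Cdx1, CEpiLCs against naive ESCs, reversed to 0.15 when peaks were ranked by −log10 p and to 0.52 when folds were divided by that of the 1000th peak, and the cause was not tested. In the tests of high against low SOX2 and between cell lines, 14 values lost their threshold. They included high against low SOX2 for SOX2 at Cdx4 with the same 2 settings (exact permutation p = 0.12 and 0.13). Separations that were lost, and values with a replicate left out, were not counted in the 14. With both settings the groups overlapped for SOX2 at Cdx2, SOX2-ON against SOX2-OFF, and for SOX2 at Cdx4, CEpiLCs against naive ESCs. The count of separated pairs went from 4 to 8 for SOX2-OFF against CEpiLCs without lists of under 5000 peaks (an alternative chosen after seeing the data), with fewer libraries to separate. Leaving out each replicate gave 8 to 11 for SOX2-ON against SOX2-OFF and 7 to 9 for SOX2-OFF against CEpiLCs, where 2 against 2 separate more easily, and cannot pass 0.05 for high against low SOX2 (smallest exact p 0.0556). The difference between cell lines was called in 4 pairs by rank and 4 over the 1000th peak in place of 2.

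Same-numbered libraries did not deviate together in every group (correlations from −0.302 to 0.275), so the replicate numbers were not used to pair the samples. This does not exclude a pairing. With a replicate block, 8 in place of 4 pairs were called for SOX2-OFF against CEpiLCs. A call there needed all same-numbered differences to have the same sign, which is easier to meet than the separation behind the 4. For the difference between cell lines 1 in place of 2 was called. Both LEF1 differences between the lines were lost with the block (exact permutation p = 0.0625 at Cdx1 and 0.125 at Cdx2), and the 1 called was another pair.

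Elements numbered 72 when any 1 library sufficed and 62 with all peaks, in place of 15. Loci with a peak in 3 of 3 against 0 of 3 libraries numbered 0 with all peaks and 3 with equal-length lists, 10 kb windows or at least 2 of 3 libraries, in place of 1. Depth was unknown, and whether list length accounted for an absent peak was not tested.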
